A study of Saccharomyces cerevisiae with 7 samples.

Results

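The array of cells expressing NES-GFP was compared with the array of cells expressing GFPm3, a GFP that misfolds. These were 2 of the 7 arrays of the series, taken by their labels and hybridized on the same slide, and the difference between them was described across all 6225 systematic names of the array. NES-GFP is a green fluorescent protein with a nuclear export signal and was expressed from *HXT7pro*, while GFPm3 was expressed from *PYK1pro* (the promoter of *CDC19*). Both were carried by the same plasmid, with *URA3* and the weakly expressed allele *leu2d* as markers, in BY4741 (*MATa his3Δ1 leu2Δ0 met15Δ0 ura3Δ0*), and the cells were grown without uracil to mid log phase. The other 5 arrays, of the same host in the same medium, are given beside them where they set the level of a gene in context. These are the empty vector, MTS-GFP (with a mitochondrial targeting signal) and SS-GFP (with a signal sequence) from *PYK1pro*, and GFP and GFP-Deg (with a degradation signal) from *TDH3pro*. The empty vector and MTS-GFP were on the slide of both compared arrays. GFP, GFP-Deg and SS-GFP were on another slide, so that slide and construct cannot be told apart for them. Each construct was on 1 array, so that no value has a replicate, no p-value is given, and differences in culture, RNA and hybridization were not measured. Promoter, plasmid copy number and the protein expressed differ together between both arrays and cannot be told apart.

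A leucine-rich export signal is bound in the nucleus by the exportin Crm1 together with Ran-GTP, and the complex leaves through the nuclear pore and is released in the cytoplasm. Misfolded proteins in the cytosol are bound by Hsp70 and its Hsp40 partners, refolded with the help of Hsp110, Hsp90 and Hsp104, or passed to the proteasome, and the genes of many of these chaperones are switched on by the transcription factor Hsf1. A slow or stressed yeast cell also changes genes of ribosome production, reserve carbohydrates and stress defence, many of them under Msn2 and Msn4, so that these groups were looked at beside those of export and folding.

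Levels are given as log2 of the processed signal minus the 75th percentile of the array, and a difference is the level in NES-GFP minus the level in GFPm3. The 75th percentile of the signal was 5626 in NES-GFP and 5337 in GFPm3, within a range of 3719 to 5626 over the 7 arrays. Both arrays had over 97% of their yeast spots above background (97.5% and 97.3%), 0 were saturated, and 6047 names were well above background on both. Each probe had 7 spots, and the median standard error of a difference from these spots was 0.03 on the log2 scale, which covers the measurement on the array only. As a check of the host, *HIS3* and *MET15* were well above background on 0 of the 7 arrays. The genes of *MATa* cells were expressed, with *MFA1* (a-factor) at 1.62 in NES-GFP and 1.41 in GFPm3 and *STE2* (the alpha-factor receptor) at 0.81 and 0.71. Of the genes of alpha cells, *MF(ALPHA)1* was at -7.82 and -6.85, *MF(ALPHA)2* at -7.99 and -7.92 and *STE3* at -3.21 and -3.06. These were lower than *MFA1* and *STE2* but well above background on both arrays, so their absence was not shown.

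Most transcripts were at like levels on both arrays. Of the 6225 names, 6022 (96.7%) were within 2-fold, 138 were over 2-fold higher in NES-GFP and 65 over 2-fold lower, which are 3.26% past 2-fold in either direction, 2.22% higher and 1.04% lower. Among names well above background on both arrays, the counts were 135 and 58. The higher genes also reached larger differences, with 19 over 4-fold against 6 lower, and 4 over 8-fold against 0. The median difference was -0.10 and the SD over all names was 0.44. Close to the threshold, 29 genes had a difference between 1 and 1.05 in size and 31 between 0.95 and 1. The split between higher and lower depended on the scaling. Of the genes past 2-fold, 68.0% were higher in NES-GFP in these values, against 79.2% with array medians, 80.2% with loess, 78.5% without scaling and 78.7% with another background correction (normexp).

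**Figure D1:**
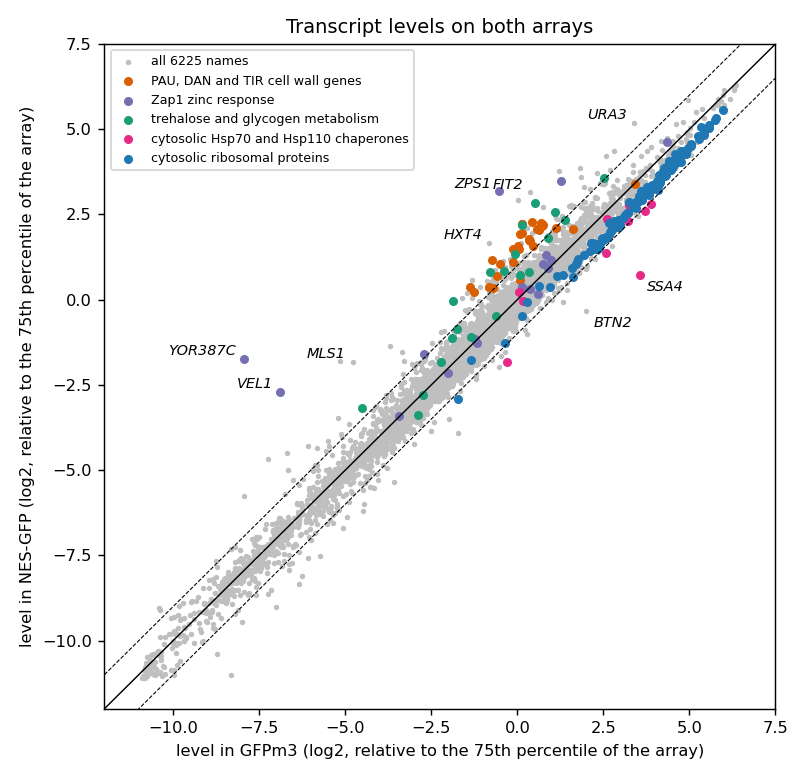
Level of each of 6225 names in NES-GFP (y axis) against GFPm3 (x axis), both as log2 relative to the 75th percentile of the array. The solid line is equality, the dashed lines are 2-fold, and coloured points are genes of 5 lists. The PAU and reserve carbohydrate genes lie mostly above the line, the Hsp70 and ribosomal protein genes below it, and *YOR387C* stands farthest from it.

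Of the 135 higher genes above background on both arrays, GFPm3 was the lowest of the 7 arrays for 61 and NES-GFP the highest for 22, with 2 genes counted in both. Of the 58 lower genes, GFPm3 was the highest of the 7 for 41 and NES-GFP the lowest for 11, with 1 gene in both. On the same slide, MTS-GFP was nearer to NES-GFP than to GFPm3 for 127 of the 135 higher genes and 53 of the 58 lower ones. The empty vector was nearer to GFPm3 for 84 of the 135, and nearer to NES-GFP for 49 of the 58. The genes were chosen on the NES-GFP and GFPm3 arrays, so these counts describe the genes and test nothing. Ranks over the 7 arrays also mix slide with construct. Over the 6 pairs of arrays on the slide, the number of names past 2-fold was 106 for MTS-GFP and NES-GFP, 203 for NES-GFP and GFPm3, 277 for the empty vector and NES-GFP, 317 for the empty vector and GFPm3, 449 for GFPm3 and MTS-GFP and 512 for the empty vector and MTS-GFP.

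Cytosolic Hsp70 and Hsp110 chaperone genes were lower in NES-GFP than in GFPm3. Of the 11 genes of this list, 5 were over 2-fold lower and 0 higher, and the list had a median difference of -0.89, against -0.10 over all names. *SSA4* (YER103W), the strictly stress-inducible cytosolic Hsp70, had the lowest difference of all names. Its level was 0.72 in NES-GFP and 3.57 in GFPm3, beside 1.09 in the empty vector, 1.44 in MTS-GFP, 0.41 in GFP, 0.88 in GFP-Deg and 0.27 in SS-GFP. GFPm3 stood above the other 6 arrays, which lay between 0.27 and 1.44, and the difference of -2.85 (spot SE 0.03) is 7.21-fold. The spots of *SSA4* were between 0.63 and 0.77 in NES-GFP and between 3.48 and 3.65 in GFPm3 and did not overlap. *SSA3* (YBL075C), its stress-inducible relative, was at -1.82 in NES-GFP and -0.29 in GFPm3, with the other arrays between -2.25 and -1.07, a 2.90-fold difference. *FES1*, an exchange factor that releases substrates from Hsp70, was 2.31-fold lower (1.35 against 2.56).

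The Hsp70 genes used in unstressed cells differed less. *SSA2* (YLL024C), a constitutive Hsp70, was at 2.59 in NES-GFP and 3.72 in GFPm3, but GFP-Deg reached 4.37, GFP 3.59 and the empty vector 3.22, so that the GFPm3 value was within the range of the other arrays and NES-GFP was at the low end. Its difference of -1.12 was -0.91 with loess. *SSE1*, the main Hsp110, was 2.13-fold lower (2.79 against 3.88), with GFP-Deg at 3.84, and its difference of -1.09 was -0.98 with quantile normalization and -0.86 with loess. *SSA1* and *SSA2* are near-identical in sequence, so their probes may read each other's transcript, which was not tested. The ribosome-associated *SSB1* and *SSB2* differed by -0.50 and -0.46, and *SSE2* was the only gene of the list above 0, at 0.15.

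**Figure D2:**
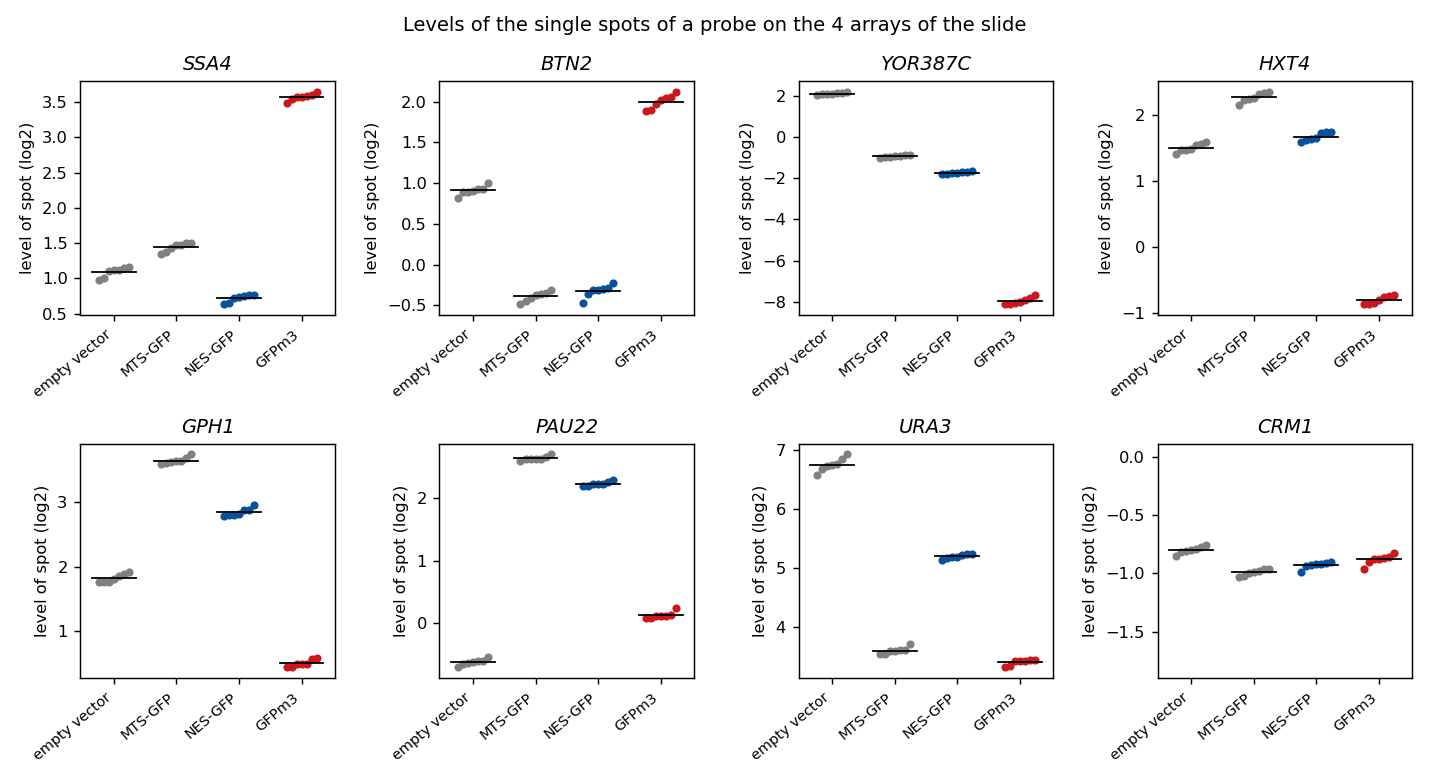
Level (log2, y axis) of the single spots of the probe of 8 genes on the 4 arrays of the slide (x axis). Points are up to 7 spots ordered by level, lines are their means, blue is NES-GFP and red GFPm3. For all but *CRM1*, the spots of NES-GFP and GFPm3 are far apart against their own spread.

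The sorting and co-chaperone genes gave a wide range. Of 16 genes for the disaggregase, small heat shock proteins and Hsp40 proteins, 4 were over 2-fold lower in NES-GFP and 0 higher, with a median of -0.44. *BTN2* (YGR142W), which sequesters misfolded proteins into deposits, was at -0.32 in NES-GFP and 2.002 in GFPm3, beside 0.91 in the empty vector, -0.39 in MTS-GFP, -0.17 in GFP, 1.10 in GFP-Deg and -1.07 in SS-GFP. The GFPm3 array was the highest of the 7, the empty vector and GFP-Deg came next, and the difference between NES-GFP and GFPm3 was 5.01-fold. Its paralog *CUR1* was 2.24-fold lower (-1.53 against -0.36), and *APJ1*, an Hsp40 acting on aggregates, 2.16-fold lower (-0.88 against 0.23). *YDJ1*, the main cytosolic Hsp40, was at 2.44 against 3.51, a difference of -1.07 that fell short of 2-fold under all 4 other scalings (-0.99 to -0.86). *HSP104*, the disaggregase, was within 2-fold at 2.60 and 2.75, and so was *HSP26*, a small heat shock protein, at 3.54 and 3.22.

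Among 14 genes of Hsp90 and its co-chaperones, 2 were over 2-fold lower, 0 were higher and the median was -0.56. *AHA1*, which activates the Hsp90 ATPase, was at 1.57 in NES-GFP, 2.74 in GFPm3 and between 1.18 and 1.78 on the other 5 arrays, a 2.25-fold difference. *STI1*, which joins Hsp70 to Hsp90, was at 0.77 and 1.78, with a difference of -1.02 that was between -0.96 and -0.93 with loess, array medians or no scaling. *HCH1*, a relative of *AHA1*, differed by -0.98 and constitutive Hsp90 (*HSC82*) by -0.92. For all of these, GFPm3 was higher than NES-GFP by more than the spots of an array varied, and whether separate cultures vary less than this was not measured.

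The other arms of protein quality control had 0 genes past 2-fold. Only 3.26% of all names were past it, so 0 in lists of this size is no result about them. Medians of the proteasome, ubiquitin and endoplasmic reticulum lists were near the -0.10 of all names. None of 33 proteasome subunit genes was past 2-fold, and they lay between -0.18 and 0.26 with a median of -0.02. In the list of ubiquitin and Cdc48 genes, 0 of 21 were past 2-fold (median -0.01). *RPN4*, the transcription factor of proteasome genes, was at 0.79 in NES-GFP and 1.29 in GFPm3, a difference of -0.51. No gene of the 23 for folding in the endoplasmic reticulum was past 2-fold (median -0.06), and *KAR2*, the Hsp70 of that compartment, had a difference of -0.59, at 2.72 in NES-GFP, 3.31 in GFPm3 and 3.57 in the empty vector. The CCT chaperonin and prefoldin genes were all 14 below 0, with a median of -0.25 and 0 past 2-fold. Of 16 mitochondrial chaperones and proteases, 0 were past 2-fold (median -0.17), with *MDJ1*, the mitochondrial Hsp40, at -0.92 and *HSP78*, the mitochondrial disaggregase, at -0.68.

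Genes of the export machinery differed little between the arrays. *CRM1* (YGR218W), the exportin that carries this kind of signal, was at -0.93 in NES-GFP and -0.88 in GFPm3, beside -0.80 in the empty vector, -0.99 in MTS-GFP, -0.71 in GFP, -0.72 in GFP-Deg and -0.82 in SS-GFP. Its spots in NES-GFP and GFPm3 overlapped, from -0.99 to -0.90 and from -0.96 to -0.83, and the difference was -0.05 (spot SE 0.02). Of 26 genes for transport receptors and the Ran system, 0 were past 2-fold, 22 were below 0 and the median was -0.17. The largest differences were those of *GSP2*, the minor Ran gene (0.66, at 0.24 against -0.41), *LOS1*, the tRNA exportin (-0.52), *KAP123*, an importin for ribosomal proteins (-0.48), and *RNA1*, the Ran GTPase activator (-0.32). The 32 nuclear pore genes were closer still, with 0 past 2-fold, 31 below 0, a range of -0.37 to 0.04 and a median of -0.19. Over all names, 3.26% were past 2-fold, so 0 in lists of this size is no result about them. Of the 6225 names, 3915 were below 0, and with array medians in place of the 75th percentile their median was -0.01.

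**Figure D3:**
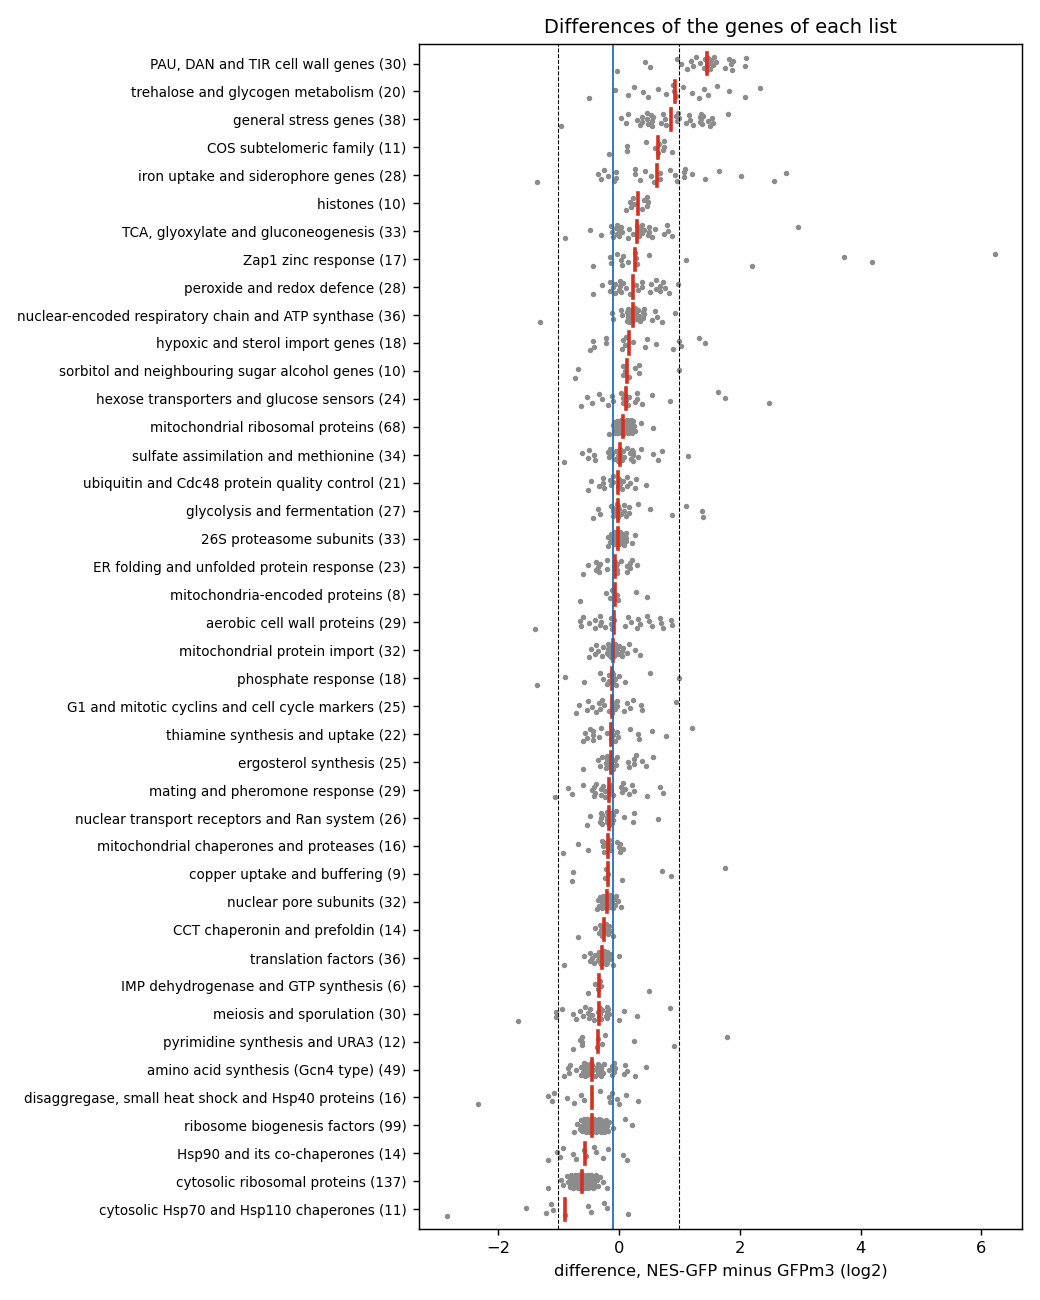
Difference of NES-GFP minus GFPm3 (log2, x axis) for the genes of each of 42 lists (y axis, with the number of genes), 1 point per gene. The red bar is the median of the list, the blue line the median of all names (-0.10), and the dashed lines are 2-fold. The PAU, DAN and TIR genes have the highest median (1.46) and the Hsp70 and Hsp110 genes the lowest (-0.89).

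The genes of ribosome production were lower in NES-GFP by small amounts that almost all of them shared. All 137 cytosolic ribosomal protein genes were below 0, from -1.17 to -0.20, with a median of -0.60, though only 1 was past 2-fold. That gene was *RPL7B* (YPL198W), at -2.91 in NES-GFP, -1.74 in GFPm3 and -2.11 in the empty vector. The median level of the list was 3.04 in NES-GFP and 3.65 in GFPm3, beside 3.62 in the empty vector and 2.77 in MTS-GFP, so that GFPm3 was near the empty vector and NES-GFP below both. Over the other settings the median difference was between -0.62 and -0.39. Many of these genes are pairs of near-identical paralogs, and their probes are not separate measurements.

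Of 99 ribosome biogenesis factors, which process and assemble the precursors of the ribosome in the nucleolus, 97 were below 0, with a median of -0.44 and 0 past 2-fold. The median level of this list was -0.84 in GFPm3, against -1.27 in NES-GFP, -1.31 in the empty vector and -1.39 in MTS-GFP, so here NES-GFP was near the empty vector and GFPm3 above both. All 36 translation factor genes were below 0 (median -0.27), with the largest difference in *EFB1*, the exchange factor of elongation factor eEF1, at 3.23 against 4.14. *ZPR1*, which folds the elongation factor eEF1A, was 2.74-fold lower, at -1.98 in NES-GFP and -0.53 in GFPm3, where it was the highest of the 7 arrays. Amino acid synthesis genes of the Gcn4 type were below 0 for 44 of 49 (median -0.44, 0 past 2-fold), with *LEU9*, an isopropylmalate synthase, the lowest at -0.90. Their median level was 2.01 in NES-GFP and 2.64 in GFPm3, beside 2.16 in the empty vector and 1.75 in MTS-GFP.

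The largest difference of all was found among genes of the zinc response, which the activator Zap1 switches on when zinc is short. Of 17 genes on this list, 5 were over 2-fold higher in NES-GFP and 0 lower, while the median was 0.26. *YOR387C*, a gene of unknown function, was at -1.73 in NES-GFP and -7.95 in GFPm3, beside 2.11 in the empty vector, -0.92 in MTS-GFP, -0.82 in GFP, -0.37 in GFP-Deg and -3.16 in SS-GFP. GFPm3 was far below the other 6, NES-GFP was within their range, and the difference of 6.22 (spot SE 0.07) is 74.8-fold. The GFPm3 level was near the -8.62 of the lowest gene above background on that array. Its size thus depends on the background correction. With normexp, whose added offset of 50 by itself shrinks differences of low signals, the difference was 4.31. *VEL1* (YGL258W), its near-identical relative, was at -2.70 in NES-GFP and -6.89 in GFPm3, an 18.3-fold difference (4.19, and 3.01 with normexp), and the probes of this pair may not be separate measurements.

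*ZPS1* (YOL154W), a cell surface protein of zinc-starved cells, was at 3.18 in NES-GFP and -0.55 in GFPm3, beside 5.28 in the empty vector, 3.91 in MTS-GFP, 4.28 in GFP, 5.37 in GFP-Deg and 3.20 in SS-GFP. NES-GFP was thus the lowest array after GFPm3, and stood 13.2-fold above it. *ZRT1* (YGL255W), the high-affinity zinc transporter, was at 3.48 in NES-GFP, 1.27 in GFPm3 and between 3.45 and 5.24 on the other arrays, a 4.61-fold difference. *ADH4*, an alcohol dehydrogenase of zinc-starved cells, was 2.15-fold higher, at -1.60 against -2.71. *ZAP1* itself was at -3.40 and -3.43. The remaining genes of the list were between -0.42 and 0.50, so that the large differences of the list were those of 5 genes.

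Iron uptake genes were higher in NES-GFP, with 9 of 28 over 2-fold higher, 1 lower and a median of 0.63. *FIT2* (YOR382W), a cell wall mannoprotein that holds siderophores, was at 3.15 in NES-GFP and 0.38 in GFPm3, beside 1.78 in the empty vector, 2.95 in MTS-GFP, -1.11 in GFP, -0.19 in GFP-Deg and 0.29 in SS-GFP. Here NES-GFP was the highest of the 7 arrays and MTS-GFP was next to it, and the difference from GFPm3 was 6.81-fold. *FIT3*, of the same family, was at 3.85 against 1.83 (4.07-fold), and *FRE5*, a putative ferric reductase beside it on the chromosome, at -4.67 against -7.25 (5.95-fold, a difference of 2.57 that was 1.37 with normexp). *TIS11*, which marks transcripts of iron-using proteins for decay, was 3.16-fold higher (0.06 against -1.60). The siderophore transporters *ARN1*, *ARN2*, *SIT1* and *ENB1* had differences of 1.22, 1.43, 1.09 and 1.08, and the oxidase *FET3* of high-affinity iron uptake had 1.08. *FRE4*, another reductase gene, was the 1 gene in the other direction, at -5.52 against -4.16. The activators *AFT1* and *AFT2* differed by -0.07 and -0.30.

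Of the 9 copper genes, only *FRE7*, a copper-regulated reductase, was past 2-fold, beside 3.26% of all names. It was at -3.46 in NES-GFP and -5.22 in GFPm3, beside -2.07 in the empty vector and -7.09 in MTS-GFP, so that NES-GFP and MTS-GFP lay on opposite sides of GFPm3. *CTR1*, the high-affinity copper transporter, was at 0.44 and -0.42, and the metallothionein genes *CUP1-1* and *CUP1-2*, which are identical copies, were at -0.76 and -0.78 in the difference. The phosphate list had 1 of 18 genes lower and 0 higher, and its median of -0.11 was near the -0.10 of all names. *PHO84*, the high-affinity phosphate transporter, was at -3.86 in NES-GFP and -2.50 in GFPm3, beside -1.19 in the empty vector and 1.31 in MTS-GFP, and the low value of NES-GFP was close to the -3.93 of GFP, -3.16 of GFP-Deg and -3.59 of SS-GFP.

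**Figure D4:**
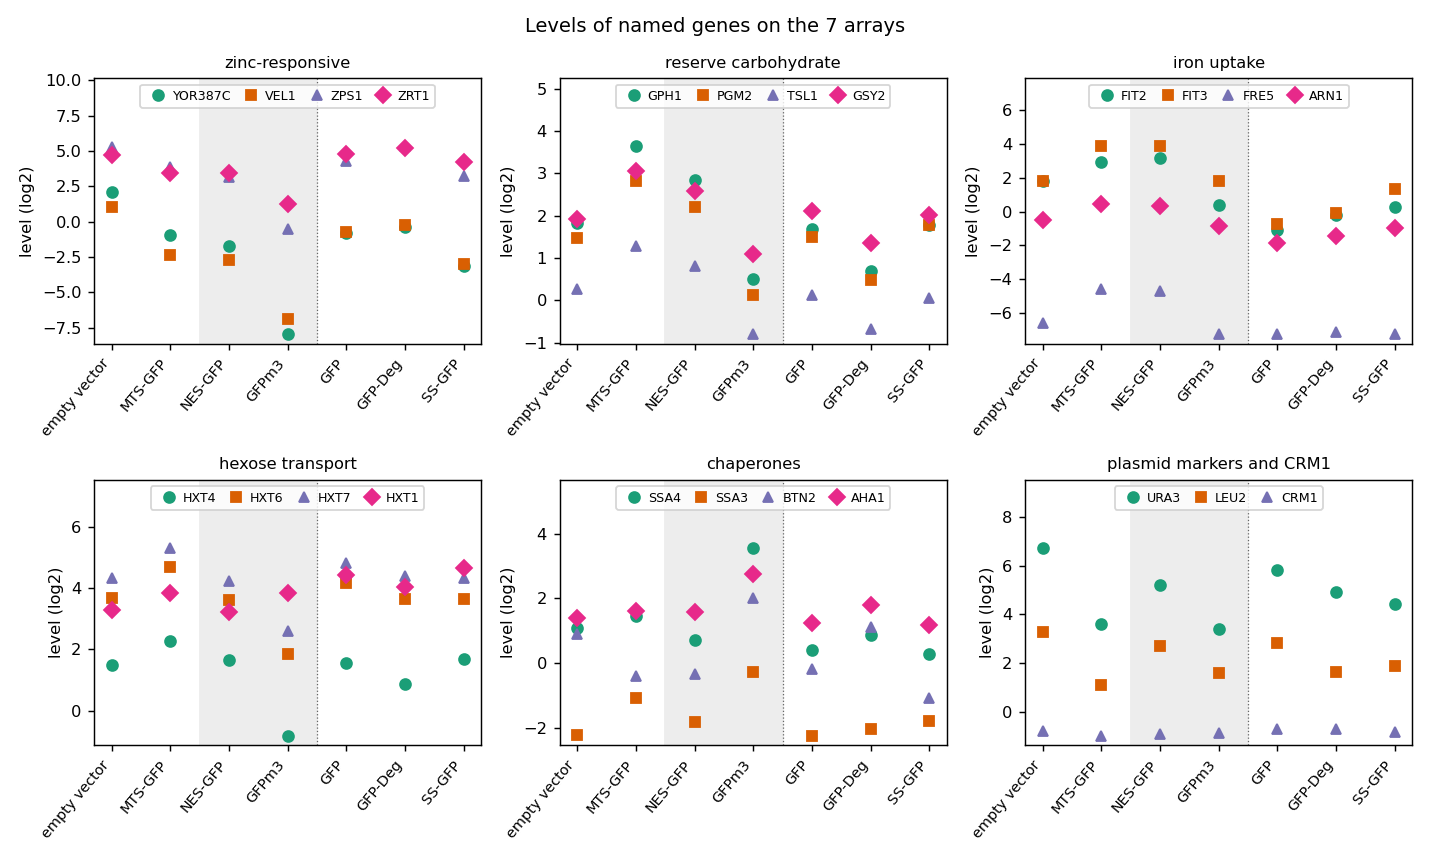
Level (log2, y axis) of 23 genes in 6 groups on the 7 arrays (x axis), 1 value per gene and array. The grey band holds NES-GFP and GFPm3, and the dotted line separates both slides. GFPm3 is the lowest array for the zinc genes and the highest for *SSA4*, *SSA3*, *BTN2* and *AHA1*, while *CRM1* is level.

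Reserve carbohydrate genes were higher in NES-GFP. Of 20 genes of trehalose and glycogen metabolism, 9 were over 2-fold higher and 0 lower, with a median of 0.93. *GPH1* (YPR160W), glycogen phosphorylase, was at 2.85 in NES-GFP and 0.50 in GFPm3, beside 1.82 in the empty vector, 3.65 in MTS-GFP, 1.70 in GFP, 0.70 in GFP-Deg and 1.78 in SS-GFP. GFPm3 was the lowest array and MTS-GFP the highest, and NES-GFP was 5.07-fold above GFPm3. *PGM2*, the main phosphoglucomutase, was at 2.20 against 0.12 (4.23-fold), and *GDB1*, the glycogen debranching enzyme, at -0.05 against -1.87 (3.53-fold). *TSL1*, a subunit of trehalose synthase, was 3.07-fold higher (0.82 against -0.80). Synthesis and breakdown genes were both among those past 2-fold, with the glycogen synthases *GSY1* and *GSY2* at 1.40 and 1.48 and the branching enzyme *GLC3* at 1.22.

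General stress genes, most of them targets of Msn2 and Msn4, were over 2-fold higher for 15 of 38, against 2.22% of all names. None was over 2-fold lower, and the median was 0.86. The median level of the list was 0.57 in NES-GFP and -0.18 in GFPm3, beside -0.08 in the empty vector and 1.37 in MTS-GFP. On the other slide it was between -0.21 and 0.47. MTS-GFP was thus above NES-GFP, and GFPm3 was near the empty vector. *SPI1*, a cell wall protein of stationary cells, was at 2.09 in NES-GFP and 0.28 in GFPm3 (3.51-fold), and *TFS1*, an inhibitor of carboxypeptidase Y, at 1.66 and 0.10 (2.96-fold). *SOL4*, of the pentose phosphate pathway, and *GCY1*, a glycerol dehydrogenase, were 2.91-fold and 2.84-fold higher. *HSP12*, a membrane protein that stress also induces, was the only gene of the list below 0, at 0.48 in NES-GFP, 1.44 in GFPm3, 2.32 in MTS-GFP and -0.59 in the empty vector. Outside the lists, *HSP30* (YCR021C), a stress protein that restrains the proton pump Pma1, was at 3.78 in NES-GFP, 1.20 in GFPm3 and between 3.28 and 4.11 on the other 5 arrays. GFPm3 alone was low for this gene, by 5.96-fold against NES-GFP. The 28 genes of peroxide and redox defence had 0 past 2-fold, beside 3.26% of all names, and a median of 0.23.

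Genes of sugar uptake differed in a few members. Of 24 hexose transporter and glucose sensor genes, 3 were over 2-fold higher and 0 lower, with a median of 0.11. *HXT4* (YHR092C), a transporter for low glucose, was at 1.67 in NES-GFP and -0.81 in GFPm3, beside 1.503 in the empty vector, 2.27 in MTS-GFP, 1.56 in GFP, 0.89 in GFP-Deg and 1.68 in SS-GFP. GFPm3 was again the lowest of the arrays and NES-GFP was near the middle of the others, 5.58-fold above it. *HXT7* (YDR342C), whose promoter drives NES-GFP, was at 4.23 in NES-GFP, 2.59 in GFPm3 and between 4.32 and 5.32 on the other 5 arrays, and its near-identical neighbour *HXT6* at 3.61 and 1.85. For *HXT7*, NES-GFP was thus 3.11-fold above GFPm3 and slightly below the other 5 arrays. *CDC19*, whose promoter drives GFPm3, was at 5.66 and 5.67 and *TDH3* at 5.33 and 5.42. *HXT1*, the transporter for high glucose, was lower in NES-GFP by 1.54-fold (3.22 against 3.84).

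In central metabolism, a few genes of each list were past 2-fold. Over all names the share was 3.26%, so a count of 1 in a list of this size is no result about the list. Of 27 genes of glycolysis and fermentation, 3 were higher, namely *HXK1* (1.40) and *GLK1* (1.37), the sugar kinases that glucose represses, and *ADH4*. The list had a median of -0.02, which became 0.36 with loess. Of 33 genes of the TCA and glyoxylate cycles, 1 was past 2-fold. It was *MLS1* (YNL117W), malate synthase, at -1.81 in NES-GFP and -4.78 in GFPm3, beside -4.17 in the empty vector, -1.80 in MTS-GFP and between -4.35 and -3.98 on the other slide. Only NES-GFP and MTS-GFP were high for *MLS1*, and the difference was 7.84-fold, while *ICL1*, isocitrate lyase of the same cycle, differed by -0.02. The nuclear-encoded respiratory genes were above 0 for 33 of 36, with a median of 0.23, and *CYC1*, cytochrome c, was the 1 gene past 2-fold, lower at -1.02 against 0.28.

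*CYC1* and its hypoxic isoform went in opposite directions. *CYC7*, cytochrome c of low oxygen, was at 0.55 in NES-GFP and -0.87 in GFPm3 (2.68-fold), and *ANB1*, the hypoxic eIF5A gene that lies next to *CYC1*, at 0.97 and -0.35 (2.49-fold). Of 18 hypoxic and sterol import genes, 4 were higher and 0 lower, with a median of 0.18. The remaining pair was *FET4*, a low-affinity iron transporter (1.02), and *COX5B*, the hypoxic oxidase subunit (1.003). Both were at the threshold and fell to 0.98 for *FET4* with normexp and for *COX5B* with quantile normalization. *COX5A*, its aerobic form, was at 0.21 in the difference, and *ROX1* and *MOT3*, repressors of hypoxic genes, at -0.42 and -0.48.

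The PAU, DAN and TIR genes, for cell wall mannoproteins of cells with little oxygen, had the highest median of the 42 lists, at 1.46. Of 30 genes, 26 were over 2-fold higher in NES-GFP and 0 lower. *PAU22* (YPL282C) was at 2.23 in NES-GFP and 0.13 in GFPm3, beside -0.62 in the empty vector, 2.64 in MTS-GFP, -1.26 in GFP, -1.65 in GFP-Deg and -1.39 in SS-GFP. The NES-GFP and MTS-GFP arrays were high, GFPm3 was in between, and the difference was 4.28-fold. The median level of the list showed the same order on the slide, with -0.39 in the empty vector, 0.14 in GFPm3, then 1.77 for NES-GFP and 2.31 for MTS-GFP. The PAU genes are so alike that they are not 26 separate measurements. *TIR4*, a distinct wall mannoprotein gene, was at 1.16 against -0.74 (3.72-fold) and *DAN1* at 0.34 against -0.70 (2.04-fold). *TIR1*, the cold-shock member, was alone below 0, at 3.39 and 3.42. Of 29 other cell wall genes, 0 were higher and 1 was lower, *CWP1*, at -0.06 against 1.32.

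Many of the PAU genes lie near chromosome ends. Among 320 genes that are the last 10 of a chromosome arm, 34 were over 2-fold higher and 7 lower (12.8%), against 97 and 53 of the other 5395 genes (2.78%). Of those 34 genes, 19 belonged to the PAU, DAN and TIR list. The COS genes, a different family of these regions, had a median of 0.64 with 10 of 11 above 0 and 0 past 2-fold. Neighbouring genes past 2-fold formed 23 adjacent pairs, 20 of them in the same direction. Of all genes past 2-fold, 68.0% were higher. The share of such pairs among all adjacent genes was not worked out, so these counts are a description only. The pairs included *FIT2*, *FIT3* and *FRE5* in a row, *ZPS1* with *FRE7*, *ADH4* with *ZRT1*, *HXT7* with *HXT6* and *BIO5*, *BIO4* and *BIO3*. The 3 pairs in opposite directions were *ANB1* with *CYC1*, *PAU17* with *SSA2* and *PAU20* with *YOL160W*. Medians of the nuclear chromosomes were between -0.15 and -0.08.

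The biotin genes were picked out after their values had been seen, from the run of neighbours above. Of 6 genes, 5 were over 2-fold higher in NES-GFP, with a median of 1.23. *BIO5* (YNR056C), which imports a biotin precursor, was at 2.71 in NES-GFP and 0.74 in GFPm3, beside 1.76 in the empty vector, 2.41 in MTS-GFP, 0.81 in GFP, 0.96 in GFP-Deg and 0.02 in SS-GFP. NES-GFP was the highest of the 7 arrays, 3.90-fold above GFPm3. *BIO4* and *BIO3*, enzymes of biotin synthesis, had differences of 1.52 and 1.23, *VHT1*, the biotin transporter, 1.23, *BPL1*, the ligase that attaches biotin to enzymes, 1.13, and *BIO2*, biotin synthase, 0.94. *BIO2* was also past 2-fold with loess, array medians or no scaling (1.01 to 1.05).

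The markers of the plasmid differed between the arrays. *URA3* (YEL021W), whose chromosomal copy is deleted in the host, was at 5.19 in NES-GFP and 3.40 in GFPm3, beside 6.75 in the empty vector, 3.59 in MTS-GFP, 5.84 in GFP, 4.90 in GFP-Deg and 4.43 in SS-GFP. NES-GFP was 3.47-fold above GFPm3, which was the lowest of the 7 arrays. *LEU2* (YCL018W) was 2.20-fold higher, at 2.72 in NES-GFP and 1.58 in GFPm3, with the empty vector at 3.27. On the MTS-GFP array *LEU2* was at 1.09. The part of the markers in other differences was not tested. Most other genes of pyrimidine synthesis were not higher with *URA3*. On the list of 12, which includes *URA3*, 9 were below 0 and the median was -0.35, with *URA1*, dihydroorotate dehydrogenase, at -0.76.

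The lower genes outside the chaperones were mostly of low signal. The 1245 names with the lowest mean level on both arrays held 35 of the 65 lower genes and 26 of the 138 higher ones, while the 1245 with the highest held 14 and 66. *NFG1* (YLR042C), a regulator of filamentous growth, was at -3.91 in NES-GFP, -1.72 in GFPm3 and between -4.91 and -2.60 on the other arrays (4.54-fold). *UBC11*, a ubiquitin-conjugating enzyme, was at -5.35 against -3.59 (3.38-fold), and *DAL80*, a repressor of nitrogen genes, at -6.21 against -4.50 (3.29-fold). *AMF1*, an ammonium transporter, was at -3.49 against -1.98 (2.85-fold). *YFL012W* and *YHR214C-D*, both without a known function, were at -6.70 against -5.08 and -5.99 against -4.47. For *YFL012W*, the difference of -1.63 was -1.0008 with normexp. *PGU1*, an endopolygalacturonase, was not well above background in NES-GFP. Its GFPm3 level was 3.83-fold over the lowest signal above background in NES-GFP. That fold is no strict bound, since the measured difference of -2.01 was -0.63 with normexp.

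Of 30 genes of meiosis and sporulation, 3 were over 2-fold lower in NES-GFP, 0 higher, and 26 were below 0 (median -0.33), with 27 well above background on both arrays. *SPS2*, a spore wall gene, had a difference of -1.05 and was not well above background in NES-GFP. *SPO74* was at -10.39 against -8.71 and well above background on neither array, so no fold is given. *SPS1*, a kinase of spore formation, was at -6.57 against -5.53. Both *SPS1* (-0.97 to -0.89) and *SPS2* (-0.97 to -0.87) were under 2-fold with all 4 other scalings. Outside this list, 6 more lower genes were grouped here after their values had been seen. *CDA2*, a chitin deacetylase of the spore wall, had a difference of -2.01 (-8.34 against -6.33), and its neighbour *CDA1* of -1.01, which was -0.95 to -0.89 with the 4 other scalings. *SMA1*, for spore membranes, *LDS1*, of the spore wall, and *AQY1*, the spore aquaporin, had -1.78, -1.49 and -1.40. *YGR273C*, which had -1.85, has no spore role given here. GFP-Deg was above GFPm3 for *SMA1* (-4.30 against -5.73), *LDS1* (-5.91 against -6.08) and *YGR273C* (-5.92 against -6.27). It was below GFPm3 for *CDA2* (-6.86 against -6.33) and *AQY1* (-5.53 against -4.96). With normexp, all 9 were under 2-fold (-0.96 for *CDA1*, -0.80 for *CDA2*, -0.90 for *SMA1*, -0.71 for *LDS1*, -0.95 for *AQY1*, -0.77 for *YGR273C*, -0.25 for *SPO74*, -0.64 for *SPS1* and -0.42 for *SPS2*). The offset of 50 in normexp by itself shrinks differences of low signals.

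Among the higher genes outside the lists, *YOR053W*, which the RefSeq gene table does not annotate, was at -1.81 in NES-GFP, -5.15 in GFPm3, -2.03 in MTS-GFP and between -5.40 and -3.38 on the other 4 arrays (10.1-fold). *EGO4* (YNR034W-A) was at 2.92 against 0.02, with MTS-GFP at 3.54 and the empty vector at 1.07 (7.45-fold). *YTP1*, a membrane protein of unknown function, was at -1.36 against -3.70 (5.05-fold). *RSB1*, which exports sphingoid bases, was at -4.51 in NES-GFP and -6.68 in GFPm3, and between -3.82 and -2.44 on the other 5 arrays, so that both were low and GFPm3 was the lower. Its difference of 2.17 was 1.25 with normexp. *YML034C-A* also had a difference of 2.17, and 0.79 with normexp.

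The remaining lists held 0 or 1 gene past 2-fold each. With 3.26% of all names past 2-fold, such counts are no result about these lists. In sulfate and methionine metabolism, it was 1 of 34, *MUP3*, a low-affinity methionine permease (1.14), and in thiamine synthesis and uptake 1 of 22, *THI73*, a carboxylic acid permease (1.21), which was at 1.87 in the empty vector against -1.27 in NES-GFP and -2.48 in GFPm3. In the mating list it was 1 of 29, *PRM5*, a pheromone-regulated gene that cell wall stress also induces. *PRM5* was at 1.20 and 2.25, and its difference of -1.05 was between -0.97 and -0.95 with loess, array medians or no scaling. The 10 histone genes were all above 0, from 0.13 to 0.49. For 25 cyclin and cell cycle genes the median was -0.11, with *HUG1*, a DNA damage gene, at 0.95. The ergosterol (25), mitochondrial import (32), mitochondrial ribosomal protein (68), mitochondria-encoded (8), IMP dehydrogenase (6) and sorbitol (10) lists had 0 genes past 2-fold and medians of -0.13, -0.10, 0.07, -0.07, -0.33 and 0.14.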

How the data were processed

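Total RNA of log-phase cells was labelled with Cy3 and hybridized to Agilent yeast arrays, and the authors quantified the scans with Feature Extraction (version 10.10.1.1 per the file headers). The files they deposited hold the processed signal of each spot, an intensity on a linear scale that the software had corrected for background, without scaling between arrays, and flags for outliers and for signal above background. For the published analysis the authors used the agilp package of R, and its normalization step is not given in the sources used here. From these values, control spots (of 45209 spots, 43792 carried yeast probes) and outlier spots (270 in NES-GFP, 252 in GFPm3) were dropped, and each array was centred on the 75th percentile of its log2 signals. Spots were averaged per probe, and the 6256 probes per systematic name (29 names had more than 1 probe, and their differences disagreed by at most 0.30). A gene was well above background with at least 4 such spots of each probe. Of 6225 names, 5737 matched the RefSeq gene table, which was used for names and neighbours only and gives *MET15* as *MET17*.

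A bound on a fold was set for a gene not well above background on 1 array, against the lowest signal above background there or, where higher, its own signal. Some genes not above background lay over that lowest signal, so the bound is not strict. The members, the lists and the rule for named genes were chosen with earlier results of these data known. The rule took the 15 most different genes in each direction above background on both arrays, up to 4 genes per list, the genes of the constructs and host, and up to 3 bounded genes per direction. Single exceptions in a list and genes named for their role were added after their values had been seen. Of the 42 lists, which hold 1193 names, *PRM1* was taken out of the copper list after its values had been seen, since it is no copper gene. The steps were tested on simulated arrays. Python 3.11.15, numpy 2.4.6, pandas 2.3.3, statsmodels 0.14.6 (loess) and limma 3.58.1 in R 4.3.3 (normexp, offset 50) were used. Alternatives covered scaling, background correction, filters, averages and the threshold. In bulk RNA, fewer cells with a transcript and less of it per cell cannot be told apart.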

Additional observations from a re-analysis of the deposited data

How the results depend on the processing

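No paired analysis was possible because each construct was on 1 array, and for the same reason no replicate could be left out. The counts over 2-fold were 138 higher and 65 lower. At 1.5-fold they were 358 and 381, and at 3-fold 39 and 12. With normexp, 118 were higher and 32 lower, all of them also past 2-fold in the main values. The other scalings gave 166 to 178 higher and 44 to 51 lower genes. Loess moved the median of all names from -0.10 to 0.00, and array medians to -0.01. Of the 42 list medians, 33 kept their sign under all 8 alternatives and 9 changed it, the largest of which was 0.14 in size. The trehalose and glycogen median of 0.93 was 1.02 with array medians and with loess, and 1.002 without scaling. Of 217 named differences, 29 crossed 2-fold under at least 1 alternative. Of the 87 past 2-fold, 13 moved by over 1.5 times in fold, all 13 with normexp only, and *PRM6*, near background, changed sign with normexp (0.73 to -0.05). Part of these moves comes from the normexp offset of 50, which shrinks differences of low signals. The spot SE leaves out culture and labelling, so differences near 2-fold cannot be ranked.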
